A study of Homo sapiens with 6 samples.

Results

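The extracellular matrix genes described here encode proteoglycans, the hyaluronan system, matrix glycoproteins and lysyl oxidases. The genes were 42 symbols chosen by function, with earlier results of these data known. They were 9 small leucine-rich proteoglycans, 12 genes of the hyaluronan system, 16 glycoproteins and 5 lysyl oxidases. Their members on the arrays were the probe sets with exactly 1 gene symbol in that list. These were 42 probe sets for 41 genes, of 19460 probe sets with 1 symbol for 18417 genes in the whole series. HAPLN4 had 2 probe sets, and HAS1 was not analysed here.

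Small leucine-rich proteoglycans are secreted proteins with repeats rich in leucine that bind collagen fibrils and regulate their width and spacing. Hyaluronan is a long sugar chain made at the cell surface by hyaluronan synthases, and large proteoglycans called lecticans attach to it with the help of link proteins. Fibronectin, laminins, nidogens, fibrillins and fibulins form the networks that cells adhere to, and lysyl oxidases cross-link collagen and elastin in the finished matrix. Osteoblast-lineage cells secrete much of this material as the organic part of bone.

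The cells were U2OS, an established human osteosarcoma line, as the treatment protocol names them. Other labels of the same samples spell the name U20S or U2O2. They received siRNA 2 times and were harvested at day 4 after transfection. The 6 arrays formed 3 groups of 2: siRNA targeting H3.X together with H3.Y (the combined knockdown), siRNA against H3.Y, and siRNA against luciferase, which is no gene of the cells and serves as the control. H3.X and H3.Y are primate-specific variants of histone H3. All groups were transfected, so an effect of transfection itself is shared by all 3. Arrays within a group are labelled as biological replicates, with no word on whether each came from its own culture, so a p-value here reflects array-to-array spread that may be technical. With 0 probe sets named for H3Y1 or H3Y2, the genes of H3.Y and H3.X, the knockdown itself was not analysed here.

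Values are log2 expression per probe set as deposited, with array medians from 5.10 to 5.14. Levels are compared within a probe set only. A member is called where limma gave an adjusted p under 0.05 over all 33297 probe sets. The arrays carry no detection call, so the 95th percentile of 381 olfactory receptor probe sets, 4.54 to 4.75 log2 units by array, was used to describe the low end. Of the U2OS lineage markers, 13 of 14 were measured and 12 of these lay above that level on every array, with vimentin at means of 10.80, 10.92 and 10.82 in the combined knockdown, the H3.Y knockdown and luciferase. The bone sialoprotein gene IBSP, a marker of mature osteoblasts, stayed at the low end, at 3.27, 3.19 and 3.11. Above that level by array also lay 7 of 8 fibroblast-type and smooth muscle, 6 or 7 of 9 epithelial and 4 or 5 of 5 cartilage markers. The count therefore does not set the lineage apart from these. Of endothelial markers 1 of 6 lay above it, and of blood markers 1 or 2 of 7.

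In the combined knockdown, 5 matrix genes rose relative to luciferase: lumican (LUM), the link proteins HAPLN1 and HAPLN3, fibronectin (FN1) and the lysyl oxidase LOXL4. No member passed the test in the lower direction. After H3.Y siRNA, 0 members were called in either direction. Between both knockdowns, 12 members were higher in the combined knockdown than in the H3.Y knockdown and 0 were lower. The comparisons share arrays: both knockdowns were set against the same 2 luciferase arrays, and the same combined knockdown arrays enter 2 of the 3 comparisons.

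The called share in the combined knockdown was 11.9% of member probe sets, all higher. Of all probe sets 0.859% were called higher and 0.985% lower (1.84% in either direction). Of the 19460 probe sets with 1 symbol, as members have, 247 were called higher and 272 lower. Arrays of both groups did not overlap for 22 members higher and 5 lower, or 52.4% and 11.9%, against 23.4% and 24.0% of all probe sets. For H3.Y siRNA the background was 0.279% called (0.0841% higher, 0.195% lower), and 8 members had an unadjusted limma p under 0.05. There 9 members were higher without overlap and 13 lower, or 21.4% and 31.0%, against 21.7% and 20.0% of all probe sets. Between the knockdowns 28.6% of the members were called higher, against 2.74% of all probe sets (1.92% lower, 4.67% either way). Among the 19460 with 1 symbol, 779 calls were upward there and 518 downward. In that comparison 17 members were higher without overlap and 5 lower, or 40.5% and 11.9%, against 21.2% and 25.4% of all probe sets.

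The median log2 fold change over the 42 member probe sets was 0.12 in the combined knockdown and -0.01 after H3.Y siRNA, beside 0.00 and 0.02 over all probe sets. The median between the knockdowns was 0.01, beside -0.03. Positive values made up 27 of the 42 in the combined knockdown, 19 after H3.Y siRNA and 21 between the knockdowns. A set of 9 members had means at the low end in all 3 groups: DCN, OGN, ASPN, PRELP, OMD, VCAN, POSTN, NID2 and LAMA4. Their arrays lay between 1.69 and 4.57 log2 units, and 0 of them were called in any comparison. In bulk RNA, fewer expressing cells and less RNA per cell cannot be told apart.

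**Figure D1:**
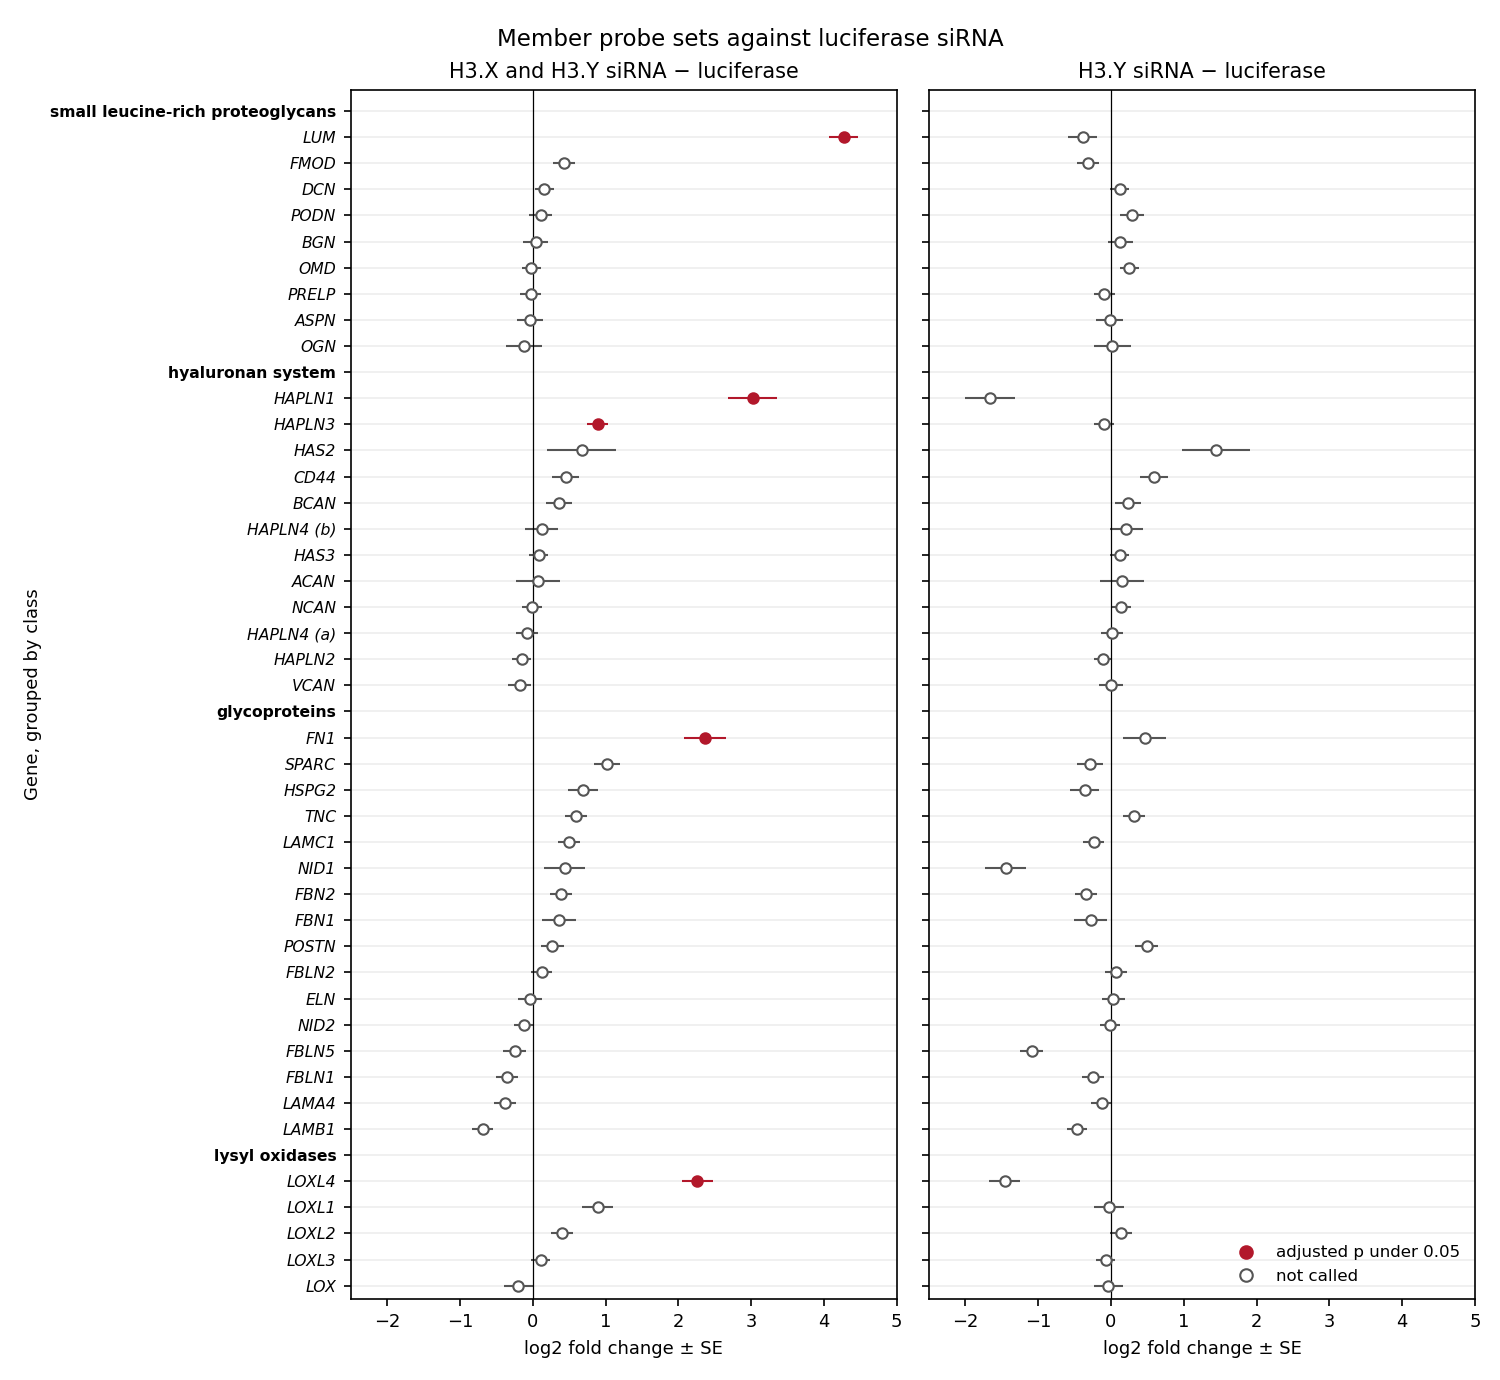
Log2 fold change of each of the 42 member probe sets with its standard error (x axis), grouped by class (y axis), for the combined knockdown (left) and H3.Y siRNA (right), each minus luciferase. Filled red points passed an adjusted p of 0.05: 5 on the left, from HAPLN3 at 0.89 to LUM at 4.27, and 0 on the right. The luciferase arrays were at the low end for LUM, so its position depends on that floor.

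Among the small leucine-rich proteoglycans, 1 of 9 rose in the combined knockdown. Lumican, which binds collagen fibrils and is found in cornea, skin and bone, stood at 6.29 and 6.59 log2 units in the combined knockdown, 1.85 and 1.72 after H3.Y siRNA, and 2.39 and 1.95 with luciferase. Both combined knockdown arrays thus lay far above the other 4, which were at the low end. The difference was log2 4.27 ± 0.20 (SE, n = 2 arrays per group) from luciferase, adjusted p = 0.0046. Since LUM was at the low end elsewhere, the size of that difference and its order among the genes depend on the floor. Taken against the olfactory receptor percentile of the luciferase arrays instead, LUM was at least 3.73-fold higher in the combined knockdown (log2 1.90).

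Fibromodulin (FMOD), a relative of lumican that shares collagen binding, had 5.01 and 4.82 log2 units in the combined knockdown, 4.06 and 4.26 after H3.Y siRNA, and 4.42 and 4.54 with luciferase. The 3 groups did not overlap, with luciferase in the middle. The knockdowns differed by log2 0.76 ± 0.15 (adjusted p = 0.043), while neither was called against luciferase (0.43 ± 0.15 and -0.32 ± 0.15). The H3.Y and luciferase means of FMOD, 4.16 and 4.48, were at the low end, and the combined knockdown mean of 4.91 lay log2 0.35 above the low end of the H3.Y arrays and 0.37 above that of the luciferase arrays. Decorin (DCN), osteoglycin (OGN), asporin (ASPN), PRELP and osteomodulin (OMD) stayed at the low end. Biglycan (BGN), which is abundant in bone, and podocan (PODN) lay above it with differences of 0.04 and 0.11 in the combined knockdown and 0.13 and 0.29 after H3.Y siRNA. The class median was 0.04, 0.02 and -0.03 for the combined knockdown, H3.Y siRNA and the difference between them.

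In the hyaluronan system, 2 link proteins of the 12 probe sets rose in the combined knockdown. HAPLN1, the cartilage link protein that holds lecticans on hyaluronan, had 8.85 and 8.79 log2 units there, 3.57 and 4.71 after H3.Y siRNA, and 5.76 and 5.84 with luciferase. The groups were fully separate, with H3.Y siRNA the lowest. The rise over luciferase was log2 3.02 ± 0.34, or 8.11-fold (adjusted p = 0.020). The difference from luciferase after H3.Y siRNA was -1.66 ± 0.34 and was not called (adjusted p = 0.12). Its H3.Y arrays differed by 1.14 log2 units, and over the 6 omissions of 1 array the difference ran from -2.23 to -1.09, with adjusted p of 0.018 (called) without H3.Y replicate 2 and up to 0.46 otherwise. The H3.Y mean of 4.14 was at the low end, and the luciferase mean lay log2 1.24 above the low end of those arrays.

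The gap between both knockdowns for HAPLN1 was log2 4.68 ± 0.34 (adjusted p = 0.0051). Against the low end of the H3.Y arrays, 4.56, the combined knockdown mean was 19.1-fold higher. That is no lower bound, since H3.Y replicate 2, at 4.71, lay above this level. HAPLN3, a link protein expressed more widely, had 7.16 and 7.08 in the combined knockdown, 6.14 and 6.10 after H3.Y siRNA, and 6.33 and 6.12 with luciferase. It rose by log2 0.89 ± 0.14 over luciferase (adjusted p = 0.037) and was 1.00 ± 0.14 higher than after H3.Y siRNA (adjusted p = 0.019). The brain link proteins HAPLN2 and HAPLN4 were not called, and both HAPLN4 probe sets differed from luciferase by at most 0.21 in either knockdown.

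The lecticans, which the link proteins hold in place, were not called in any comparison. Versican (VCAN) was at the low end on all arrays, at 2.31 to 2.74 log2 units. Aggrecan (ACAN), neurocan (NCAN) and brevican (BCAN) differed by 0.07, -0.01 and 0.36 in the combined knockdown and by 0.15, 0.14 and 0.23 after H3.Y siRNA.

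HAS2, the main hyaluronan synthase of mesenchymal cells, had 5.99 and 6.91 log2 units in the combined knockdown, 6.73 and 7.70 after H3.Y siRNA, and 5.30 and 6.25 with luciferase. In every group replicate 2 was higher than replicate 1, by 0.92, 0.97 and 0.95, so the combined knockdown overlapped with both other groups. The differences were log2 0.67 ± 0.47 in the combined knockdown and 1.44 ± 0.47 after H3.Y siRNA, with adjusted p of 0.62 and 0.25. CD44, the cell surface receptor of hyaluronan, differed by 0.45 ± 0.19 and 0.59 ± 0.19 (adjusted p of 0.33 and 0.24). Its arrays in both knockdowns lay above both luciferase arrays. HAS3 differed by 0.08 and 0.12.

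Of the 16 glycoproteins, FN1 rose in the combined knockdown. Fibronectin, the adhesive protein that integrins assemble into fibrils, had 11.93 and 11.55 log2 units in the combined knockdown, 9.40 and 10.26 after H3.Y siRNA, and 9.40 and 9.34 with luciferase. The combined knockdown arrays were separate from the rest, and the H3.Y arrays differed by 0.86. The rise over luciferase was 5.18-fold (log2 2.37 ± 0.29, adjusted p = 0.023), and over H3.Y siRNA 3.76-fold (1.91 ± 0.29, adjusted p = 0.024). The difference of H3.Y siRNA from luciferase was 0.46 ± 0.29 (adjusted p = 0.56), and it was 0.03 without H3.Y replicate 2 and 0.89 without replicate 1.

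SPARC, the collagen-binding protein also called osteonectin, had 11.55 and 11.34 log2 units in the combined knockdown, 10.33 and 9.94 after H3.Y siRNA, and 10.34 and 10.50 with luciferase. It was higher in the combined knockdown than after H3.Y siRNA by log2 1.31 ± 0.18 (adjusted p = 0.019). The difference from luciferase, 1.02 ± 0.18, missed the threshold at an adjusted p of 0.054. It passed under 6 of 8 other settings and in 2 of 6 omissions of 1 array, with adjusted p of up to 0.35 in the other omissions. The arrays of the combined knockdown lay above all others.

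Besides FN1 and SPARC, the glycoproteins called between the knockdowns were the basement membrane genes NID1, HSPG2 and LAMC1 and the elastic fibre genes FBLN5 and FBN2. The basement membrane genes LAMB1, LAMA4 and NID2 were not called. Nidogen 1 (NID1), which links laminin and collagen IV, had 7.52 and 7.25 log2 units in the combined knockdown, 5.07 and 5.91 after H3.Y siRNA, and 6.86 and 7.02 with luciferase. Both H3.Y arrays were the lowest. The knockdowns differed by log2 1.89 ± 0.28 (adjusted p = 0.021), while the H3.Y difference from luciferase was -1.45 ± 0.28 (adjusted p = 0.10) and that of the combined knockdown 0.44 ± 0.28 (adjusted p = 0.56).

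Perlecan (HSPG2), the heparan sulfate proteoglycan of basement membranes, had 7.68 and 7.23 in the combined knockdown, 6.45 and 6.35 after H3.Y siRNA, and 6.91 and 6.62 with luciferase. The laminin gamma 1 chain LAMC1 had 9.64 and 9.50, against 8.96 and 8.70 after H3.Y siRNA, and 9.12 and 9.03 with luciferase. For both genes luciferase lay between the knockdowns, with no overlap. They were higher in the combined knockdown than after H3.Y siRNA by log2 1.06 ± 0.20 and 0.74 ± 0.15 (adjusted p of 0.037 and 0.048), and were called in neither comparison with luciferase.

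The laminin beta 1 chain LAMB1, the partner of LAMC1 in laminin trimers, had 7.65 and 7.86 log2 units in the combined knockdown, 7.93 and 8.03 after H3.Y siRNA, and 8.44 and 8.45 with luciferase. Every knockdown array lay below both luciferase arrays. The differences were -0.69 ± 0.14 and -0.47 ± 0.14 and were not called (adjusted p of 0.072 and 0.21). The combined knockdown difference of LAMB1 was called lower under 3 of 8 other settings. LAMA4 and NID2 stayed at the low end.

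Among elastic fibre genes, fibulin 5 (FBLN5), which guides elastin assembly, had 6.27 and 6.06 log2 units in the combined knockdown, 5.21 and 5.44 after H3.Y siRNA, and 6.52 and 6.31 with luciferase. Here the H3.Y arrays stood apart and the other groups lay close to each other. The knockdowns differed by log2 0.84 ± 0.16 (adjusted p = 0.041). H3.Y siRNA differed from luciferase by -1.09 ± 0.16 (adjusted p = 0.067) and the combined knockdown by -0.25 ± 0.16.

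Fibrillin 2 (FBN2), a microfibril protein prominent in development, had 7.35 and 7.25 in the combined knockdown, 6.51 and 6.63 after H3.Y siRNA, and 7.04 and 6.78 with luciferase, and the knockdowns differed by 0.73 ± 0.15 (adjusted p = 0.048). Fibrillin 1 (FBN1), the main adult fibrillin, showed 0.64 ± 0.23 for the same difference and was not called (adjusted p = 0.19). Elastin itself (ELN) lay between 5.68 and 5.96 on all arrays. Fibulin 1 (FBLN1), fibulin 2 (FBLN2), periostin (POSTN) and tenascin C (TNC), a glycoprotein of remodelling tissue, were not called, with TNC at 0.59 ± 0.15 in the combined knockdown. The class median was log2 0.32 in the combined knockdown, -0.25 after H3.Y siRNA and 0.46 between them.

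**Figure D2:**
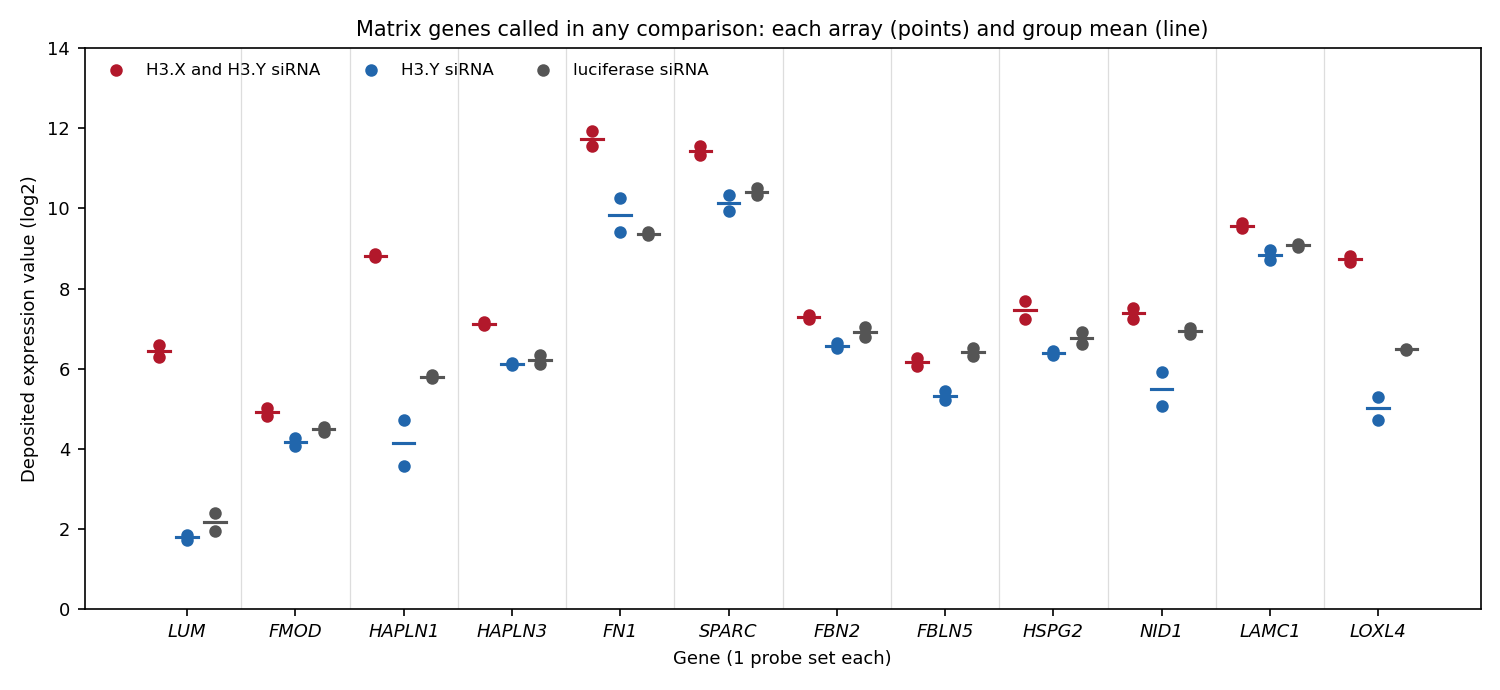
Deposited log2 values (y axis) of the 12 members called in any comparison (x axis), with a point for each of the 6 arrays and a line at each group mean. The combined knockdown is the highest group in 11 of the 12 genes, FBLN5 being the exception, and LUM reached 6.29 and 6.59 there. All 12 were called higher in the combined knockdown than after H3.Y siRNA, so that part of the order follows from their selection.

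Of the 5 lysyl oxidases, LOXL4 rose in the combined knockdown. This secreted amine oxidase of the LOX family had 8.80 and 8.67 log2 units in the combined knockdown, 4.72 and 5.30 after H3.Y siRNA, and 6.49 and 6.47 with luciferase. As with HAPLN1, the groups were separate and luciferase lay in the middle. The rise over luciferase was 4.78-fold (log2 2.26 ± 0.21, adjusted p = 0.015). The H3.Y difference was -1.46 ± 0.21 and was not called (adjusted p = 0.063), and over the 6 omissions of 1 array it ran from -1.75, called without H3.Y replicate 2 (adjusted p = 0.026), to -1.17, with adjusted p up to 0.37. The combined knockdown was 13.2-fold higher than H3.Y siRNA (3.72 ± 0.21, adjusted p = 0.0035).

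LOXL1, which acts on elastic fibres, had 8.96 and 8.71 log2 units in the combined knockdown, 7.98 and 7.84 after H3.Y siRNA, and 8.21 and 7.67 with luciferase. Its differences from luciferase were 0.89 ± 0.21 and -0.03 ± 0.21 (adjusted p of 0.10 and 0.98), and the difference between the knockdowns was 0.92 ± 0.21 (adjusted p = 0.065). LOXL2, which acts on collagen IV among others, had 8.36 and 8.11 in the combined knockdown, 7.94 and 8.02 after H3.Y siRNA, and 7.89 and 7.78 with luciferase. The founding enzyme LOX gave -0.20 ± 0.20 and -0.04 ± 0.20, and LOXL3 gave 0.11 ± 0.13 and -0.07 ± 0.13. LOX, LOXL1, LOXL2 and LOXL3 were called in no comparison of the main fit. LOXL1 was called between the knockdowns under 4 of 8 other settings, and in the combined knockdown against luciferase under 1 of 8.

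**Figure D3:**
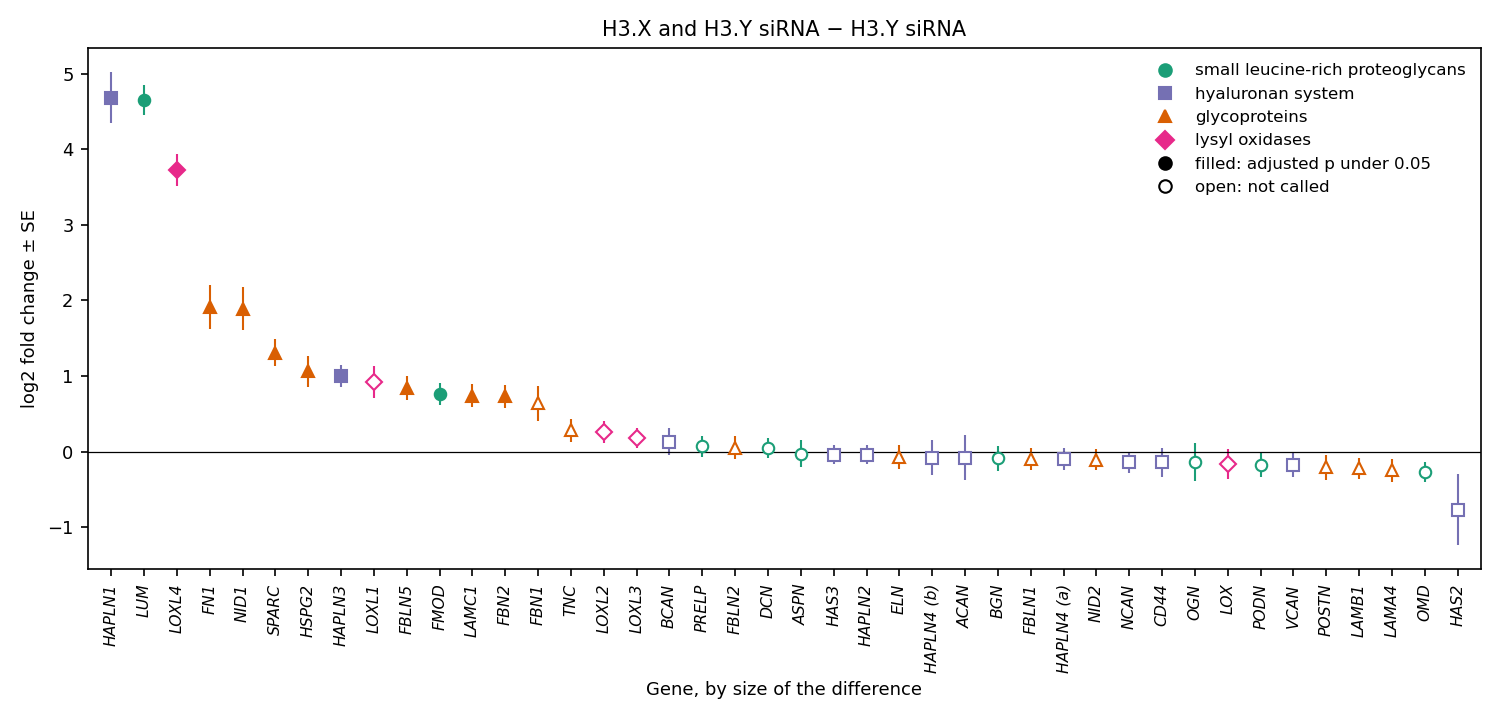
Log2 fold change of the combined knockdown minus H3.Y siRNA with its standard error (y axis) for the 42 member probe sets, ordered by size (x axis), with a marker shape for each class and filled markers for an adjusted p under 0.05. HAPLN1 at 4.68, LUM at 4.65 and LOXL4 at 3.72 are plotted above the other 9 called members, which lie between 0.73 and 1.91. LUM, HAPLN1 and FMOD were at the low end after H3.Y siRNA, and over that level LUM reached 1.88, HAPLN1 4.26 and FMOD 0.35.

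The calls rested on small groups. Against luciferase, leaving out any of the 4 arrays compared left 0 of the 5 members called (9 to 14 members at an unadjusted p under 0.05), with LUM between 4.05 and 4.49 and FN1 between 2.18 and 2.56 over all omissions, and HAPLN3 was not called in any omission. Between the knockdowns, leaving out luciferase replicate 1 or 2 left 4 called, H3.Y replicate 1 left 6 and replicate 2 left 7, and combined knockdown replicate 1 left 2 and replicate 2 left 3. LUM and LOXL4 were called in all 6 of these omissions.

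Promoter sequence is shown for the members called against luciferase that RefSeq's promoter table (GRCh38.p14) holds, to set genes that rose in the same arrays side by side. Of the 41 member genes, 34 had an entry, and LUM was not among them. Each run is the 250 bases before the annotated start, 5′ to 3′. Capitals mark any of 5 motifs searched on both strands: the GC box is GGGCGG and the TATA box is TATAA, the CCAAT box is named by its letters, the cAMP response element is TGACGTCA and the AP-1 site is TGANTCA. Adjacent GC boxes may overlap each other.
FN1 (chr2:215436069-215436318, minus strand): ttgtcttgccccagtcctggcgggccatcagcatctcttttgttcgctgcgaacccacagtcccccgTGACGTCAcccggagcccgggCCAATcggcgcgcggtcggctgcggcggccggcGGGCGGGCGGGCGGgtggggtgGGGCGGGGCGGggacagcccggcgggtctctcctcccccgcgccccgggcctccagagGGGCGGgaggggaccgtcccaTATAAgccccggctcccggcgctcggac
HAPLN1 (chr5:83720856-83721105, minus strand): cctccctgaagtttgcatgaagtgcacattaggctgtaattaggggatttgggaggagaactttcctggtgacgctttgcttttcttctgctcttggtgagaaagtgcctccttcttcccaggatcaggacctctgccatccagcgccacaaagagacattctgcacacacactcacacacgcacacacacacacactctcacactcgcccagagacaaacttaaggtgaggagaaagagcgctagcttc
HAPLN3 (chr15:88895545-88895794, minus strand): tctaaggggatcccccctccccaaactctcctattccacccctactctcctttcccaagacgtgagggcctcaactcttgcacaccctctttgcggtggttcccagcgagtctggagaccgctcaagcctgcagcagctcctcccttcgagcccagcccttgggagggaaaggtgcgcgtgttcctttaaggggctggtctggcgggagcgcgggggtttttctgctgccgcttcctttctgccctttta
LOXL4 (chr10:98268195-98268444, minus strand): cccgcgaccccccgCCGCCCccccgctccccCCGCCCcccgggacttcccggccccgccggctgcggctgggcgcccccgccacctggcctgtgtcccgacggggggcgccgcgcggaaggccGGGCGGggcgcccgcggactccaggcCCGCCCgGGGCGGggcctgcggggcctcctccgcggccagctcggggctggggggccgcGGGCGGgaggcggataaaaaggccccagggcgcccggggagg

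The 4 sequences differ in composition, with 76.4% G and C in FN1 and 86.4% in LOXL4, against 60.4% in HAPLN3 and 50.8% in HAPLN1. FN1 held 6 GC boxes, a CCAAT box, a TATA box starting 28 bases before the start, and a cAMP response element starting 183 bases before it. LOXL4 held 6 GC boxes and no other motif of the search. In the HAPLN1 and HAPLN3 windows none of the 5 motifs was found. Of 35116 promoter windows in the table, 42.6% held GGGCGG, 32.0% CCAAT, 18.9% TATAA, 6.57% TGANTCA and 1.65% TGACGTCA. Of the 40 windows of member genes, 25 held GGGCGG, 9 CCAAT, 8 TATAA, 1 TGANTCA and 1 TGACGTCA. A match is a stretch of letters and says nothing of binding.

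Several member genes lie next to each other in the genome, in the gene order of GRCh38.p14. Each link protein gene is the direct neighbour of a lectican gene: HAPLN1 of VCAN on chromosome 5, HAPLN3 of ACAN on chromosome 15, HAPLN2 of BCAN on chromosome 1 and HAPLN4 of NCAN on chromosome 19. LUM neighbours DCN on chromosome 12. In each of the 3 pairs with a gene called in the combined knockdown, the other gene was not called: VCAN gave log2 -0.18 ± 0.16 beside HAPLN1, ACAN 0.07 ± 0.30 beside HAPLN3 and DCN 0.16 ± 0.13 beside LUM.

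The protein-coding genes within 2 places on either side of the 5 called members numbered 20. Of these, 3 were called higher in the combined knockdown, 2 near HAPLN1 and 1 near HAPLN3, and 0 lower. Of all probe sets 0.859% were called higher there, and 247 of the 19460 with 1 symbol. EDIL3, an integrin-binding matrix protein on the other side of HAPLN1, had 8.40 and 8.15 log2 units in the combined knockdown, 4.64 and 5.21 after H3.Y siRNA, and 6.48 and 6.69 with luciferase. Its 3 groups were ordered as those of HAPLN1 were. EDIL3 rose by log2 1.69 ± 0.22 in the combined knockdown (adjusted p = 0.026), and its H3.Y difference of -1.66 ± 0.22 was not called (adjusted p = 0.055). The DNA repair gene XRCC4, beyond VCAN, rose by 1.13 ± 0.13 (adjusted p = 0.020), and the lipase gene ABHD2, near HAPLN3, by 1.23 ± 0.16 (adjusted p = 0.026). The neighbours of LUM, FN1 and LOXL4 were not called in that comparison. These neighbours were examined after the members' values were known.

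**Figure D4:**
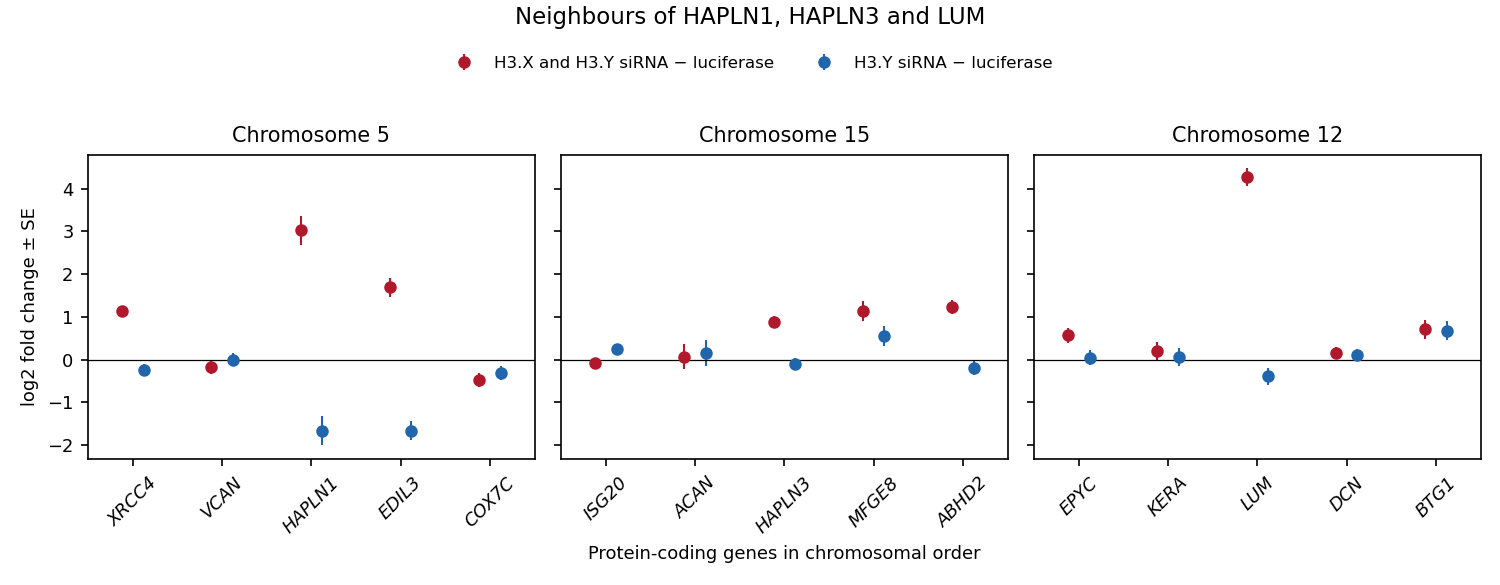
Log2 fold change with standard error (y axis) of 5 neighbouring protein-coding genes in chromosomal order (x axis) around HAPLN1, HAPLN3 and LUM, for the combined knockdown (red) and H3.Y siRNA (blue), each minus luciferase. HAPLN1 and EDIL3 lie at 3.02 and 1.69 in red and at -1.66 each in blue, VCAN near 0 in both.

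Of 143 probe sets in the related lists, 4 were called in the combined knockdown against luciferase (2.80%, beside 1.84% of all probe sets). After H3.Y siRNA 0 were called, and between the knockdowns 13 (9.09%, beside 4.67%). Restricted to the 19460 probe sets with 1 symbol, the background against luciferase was 247 calls upward and 272 downward. With the knockdowns set against each other it was 779 upward and 518 downward. Both are larger shares than those over all probe sets. Of 40 probe sets for synthesis of the sugar chains on proteoglycans, 0 were called against luciferase in either knockdown, with median log2 fold changes of 0.08 and 0.14. The heparan sulfate gene EXTL3 came closest in the combined knockdown, at 0.89 ± 0.16 (adjusted p = 0.059), and CHPF, a chondroitin-polymerizing factor, gave 0.77 ± 0.19. After H3.Y siRNA, GFPT1 gave -0.59 ± 0.12 and B3GAT3 0.59 ± 0.14. Between the knockdowns EXTL3 was higher in the combined knockdown (1.35 ± 0.16) and the sulfotransferase gene HS2ST1 lower (-0.83 ± 0.14).

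Among 15 genes of hyaluronan breakdown and receptors, 10 stayed at the low end in all groups, where a change could hardly be seen. Of the others, HMMR, a hyaluronan-binding protein that also acts at the mitotic spindle, fell. It had 5.91 and 6.32 log2 units in the combined knockdown, 5.86 and 6.48 after H3.Y siRNA, and 7.65 and 7.98 with luciferase. The difference was log2 -1.70 ± 0.26 in the combined knockdown (adjusted p = 0.036) and -1.64 ± 0.26 after H3.Y siRNA, which was not called (adjusted p = 0.073). The hyaluronidase CEMIP2 was higher in the combined knockdown than after H3.Y siRNA, by 0.97 ± 0.17 (adjusted p = 0.032).

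Of 27 probe sets for other proteoglycans, the cell surface proteoglycan syndecan 2 (SDC2) rose in the combined knockdown (log2 1.06 ± 0.16, adjusted p = 0.036) and endocan (ESM1), a secreted proteoglycan, fell by 2.24 ± 0.24 on the log2 scale (adjusted p = 0.019). SDC2 had 7.27 and 6.93 log2 units there, 6.01 and 6.13 after H3.Y siRNA, and 6.11 and 5.98 with luciferase. Of 27 other matricellular and adhesive glycoproteins, the 1 called against luciferase was thrombospondin 1 (THBS1), an adhesive glycoprotein of platelets and matrix. It had 12.02 and 11.87 log2 units in the combined knockdown, 9.18 and 9.19 after H3.Y siRNA, and 9.80 and 8.95 with luciferase, and rose by log2 2.57 ± 0.27 in the combined knockdown (adjusted p = 0.018), with both of its arrays above the other 4. None of the 7 other laminin genes was called, with LAMB3 at 1.27 ± 0.22 in the combined knockdown (adjusted p = 0.053) and 0.97 ± 0.22 after H3.Y siRNA.

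Of 19 partners of elastic fibres and microfibrils, 0 were called against luciferase, with MFAP5 at 1.19 ± 0.21 in the combined knockdown (adjusted p = 0.054). Between the knockdowns, EFEMP1, a relative of the fibulins, was higher in the combined knockdown by log2 2.49 ± 0.33 (adjusted p = 0.016), as were MFAP3 and MFAP5, by 1.31 ± 0.18 and 1.38 ± 0.21, while HMCN1, at the low end in all groups, was lower by -0.70 ± 0.13 (adjusted p = 0.040). EFEMP1 had 9.00 and 8.57 log2 units in the combined knockdown, 5.89 and 6.69 after H3.Y siRNA, and 7.87 and 7.28 with luciferase. Luciferase again lay between both knockdowns. Of 8 probe sets for activators and processing enzymes of the matrix, 0 were called in any comparison. In the combined knockdown BMP1 gave 0.64 ± 0.19 on 1 probe set and -0.02 ± 0.14 on another, which stayed at the low end. PCOLCE, which enhances procollagen processing, gave -0.95 ± 0.14 after H3.Y siRNA (adjusted p = 0.068).

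Markers of other cell types were read on the same arrays. Epithelial markers, 9 of 10 measured, averaged 6.83 and 6.79 log2 units in the combined knockdown, 5.91 and 6.11 after H3.Y siRNA, and 6.40 and 6.29 with luciferase. EPCAM, an epithelial adhesion protein, rose in the combined knockdown on both of its probe sets (log2 2.25 ± 0.18 and 2.73 ± 0.31, adjusted p of 0.013 and 0.021). It was the only epithelial marker gene called against luciferase. Of the 11 epithelial probe sets, 9 had positive values there and 2 negative, with CLDN3 at -0.33 ± 0.14 and KRT18 at 0.08 and 0.05. After H3.Y siRNA all 11 were negative and 0 were called. Between the knockdowns 10 of the 11 were positive, with a median log2 fold change of 0.78. There 4 were called higher, against 2.74% of all probe sets, and 0 lower. These were both EPCAM probe sets, CLDN4 (1.51 ± 0.17, adjusted p = 0.012) and KRT14 (0.86 ± 0.15, adjusted p = 0.03). Of the 9 measured epithelial markers, 7 lay above the low end on each combined knockdown array and 6 on each other array. KRT8 was bright, with means of 11.51, 10.51 and 11.05 in the combined knockdown, the H3.Y knockdown and luciferase. The epithelial markers KRT5 and GRHL2 stayed at the low end in all groups. Endothelial markers, 6 of 6 measured, had 0 calls and averages of 3.85 to 4.05, and blood markers, 7 of 10 measured, had 0 calls and averages of 3.23 to 3.59. The part of the epithelial markers' shift in the matrix results was not tested.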

How the data were processed

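Per the labels' protocols, total RNA was labelled with biotin, and each of the 6 samples went on 1 array. The authors deposited log2 expression values per probe set, and the submitters' processing notes name oligo (Bioconductor) as the software. For its version, background correction, summarisation and build: not given in the sources used here. That the log base is 2 was read from the values (0.687 to 14.0). The values were used as deposited. The near-equal array medians show a common scale, which hides any change shared by all transcripts. The number of arrays limits precision, and 0 value columns were left unused.

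Probe sets were named from the platform annotation, with symbols updated by Entrez ID through RefSeq (GRCh38.p14). Of 33297 probe sets, 19460 had 1 symbol, 1754 several and 12083 were unnamed here. Groups came from the labels. All 6 arrays were fitted with limma 3.58.1 in R 4.3.3 (lmFit, eBayes, 1 mean per group, 3 residual and 3.43 prior degrees of freedom), with two-sided p-values corrected with the Benjamini-Hochberg method across every probe set of a comparison. Standard errors are those of the moderated fit. The script was checked on simulated data. Members and lists were chosen with earlier results of these data known, so no set test was run. Values in every array are given for members called in any comparison and, per class, for the 2 members with the largest difference from luciferase in each knockdown. LAMB1, HMMR, SDC2, THBS1, EDIL3 and EFEMP1 were added after their values were seen. From each related list up to 4 called genes, or 2 uncalled ones, with the smallest p are named. Between the knockdowns, and for the remaining members, names were also chosen after the values were seen. The alternatives tried were: the replicate number as a block, a fit of only the 4 arrays compared, repeated quantile normalization, median centring, a filter on the lowest 25% of means, only probe sets with 1 symbol, an intensity trend, robust eBayes, 1 probe set per gene, and omission of each array.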

Additional observations from a re-analysis of the deposited data

How the results depend on the processing

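Over the 3 comparisons, 15 named members and all alternatives, 519 single-gene values kept their direction and side of the threshold, 81 lost a call, 26 gained one and 4 changed sign. The main fit called 5 members in the combined knockdown, 0 after H3.Y siRNA and 12 between the knockdowns. Only these values could lose a call, and the 519 include uncalled values that stayed uncalled. The sign changes were all of uncalled values after H3.Y siRNA. LOXL1 gave 0.00 under repeated quantile normalization, 0.24 without luciferase replicate 1 and 0.04 without H3.Y replicate 2. HAPLN3 gave 0.00 without luciferase replicate 1. Over the omissions LOXL1 ran from -0.29 to 0.24 and HAPLN3 from -0.21 to 0.00. With only probe sets of 1 gene symbol, where fewer are tested, the combined knockdown had 9 members called, 8 of them higher, and 1549 probe sets in all, H3.Y siRNA 4 and 829, and the comparison between them 2715 in all. LAMB1 was the member called lower, as it was with the filter on low values and with the trend. The 4 members then called after H3.Y siRNA were FBLN5, HAPLN1, LOXL4 and NID1, all lower. With the filter on low values H3.Y siRNA had 2 members called, and all calls were 927 for the combined knockdown and 192 for H3.Y siRNA. With an intensity trend H3.Y siRNA had 1 member called, LOXL4, and all calls were 960 and 205. With only the 4 arrays compared, H3.Y siRNA had 0 calls in all (3709 at an unadjusted limma p under 0.05), and 4 members and 448 probe sets were called between the knockdowns. The cause of the shifts under the trend was not tested.

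Leaving out 1 array gave 0 to 5 members and 0 to 644 probe sets called in the combined knockdown, 0 to 4 and 0 to 629 after H3.Y siRNA, and 2 to 7 and 12 to 1641 between them. An omission leaves the remaining array of its group without a spread of its own, which is then assumed to be that of the other groups. The labels tie the replicate numbers to no shared day or batch. Deviations of same-numbered arrays correlated at 0.122 to 0.28 over probe sets, and with 2 numbers a pairing was not taken as given. With the replicate block 1 member, HAS2, was called higher after H3.Y siRNA (log2 1.44 ± 0.12, adjusted p = 0.042), and HAS2 was lower in the combined knockdown than after H3.Y siRNA (-0.77 ± 0.12, adjusted p = 0.033). The block left 5 members called for the combined knockdown against luciferase and 12 for the knockdowns against each other, where HAS2 and LOXL1 were gained and FBN2 and FMOD lost. With 1 probe set per gene only the hyaluronan class could change, since HAPLN4 alone had 2 probe sets. Its median went from 0.10 to 0.12 in the combined knockdown and from 0.13 to 0.14 after H3.Y siRNA. Between the knockdowns it stayed at -0.08. These shifts were less than the spread between replicates.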

Other observations

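Of 13 measured markers of the mesenchymal and osteoblast lineage, 3 rose in the combined knockdown (median log2 fold change 0.16), and of 8 fibroblast-type and smooth muscle markers 2 rose (median 0.06). Of all probe sets 0.859% were called higher there, and 247 of the 19460 with 1 symbol. VIM, SP7 and CDH11 of the first list stood at -0.02, 0.00 and 0.05, and THY1, TAGLN and PDGFRB of the second at -0.30, -0.09 and -0.07. The transcription factor SNAI2, known for its role in mesenchymal cells, had 9.57 and 8.61 log2 units in the combined knockdown, 7.14 and 7.37 after H3.Y siRNA, and 7.05 and 6.66 with luciferase. It rose by log2 2.23 ± 0.32 (adjusted p = 0.031). The collagen genes COL1A1 and COL5A1 of the first list also rose in the combined knockdown, by log2 1.58 ± 0.17 and 0.94 ± 0.16. The fibroblast activation protein gene FAP had 6.80 and 6.86, against 5.54 and 5.05 after H3.Y siRNA, and 5.10 and 5.24 with luciferase, and rose by 1.66 ± 0.19 (adjusted p = 0.020). The contractile protein calponin 1 (CNN1) rose by 1.03 ± 0.14 (adjusted p = 0.028). Smooth muscle actin (ACTA2) was lower in the combined knockdown than after H3.Y siRNA, by log2 -1.07 ± 0.19 (adjusted p = 0.032), with 6.92 and 6.65 against 7.86 and 7.86. The luciferase arrays had 6.92 and 6.50. The combined knockdown thus differed from luciferase by 0.07 ± 0.19, and H3.Y siRNA by 1.15 ± 0.19, which was not called (adjusted p = 0.079). Of the 5 cartilage marker genes, 0 were called in any comparison, with MATN3 at 0.75 ± 0.21 in the combined knockdown (adjusted p = 0.16).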
